A study of Homo sapiens with 2 samples.

Results

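The miR-28, miR-151a and miR-708 family was examined by small RNA sequencing in MDA-MB-231-IV2-1, a subline isolated in mice for its metastatic behaviour from the triple-negative human breast cancer line MDA-MB-231. Every row with the name stem miR-28, miR-151a, miR-151b or miR-708 was taken, for either arm of the hairpin, and 5 of the 425 miRNAs listed in the 2 libraries met this rule, all 5 in both libraries. The control library came from cells transfected with the scrambled siRNA (N.C), and the knockdown library from cells transfected with the pooled siRNAs against the long non-coding RNA LOC550643, each 48 h before RNA extraction. The comparison addresses whether miRNA levels differ after LOC550643 knockdown. No other treatment or allele is named, and both libraries come from this 1 subline, although the cell line label gives only the parental name. With 1 library per condition there is no replicate error and no test, so that differences between cultures, between library preparations and from the knockdown cannot be told apart. The family was chosen by the RPM of hsa-miR-151a-5p and hsa-miR-151a-3p in these same libraries, which differed in opposite directions, and all its values below are therefore a description.

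A miRNA hairpin is cut by Drosha and then by Dicer into a short duplex, of which mostly 1 strand is loaded into an Argonaute protein and guides it to target transcripts through its seed, bases 2 to 8. The 5p and 3p names give the arm of the hairpin a strand comes from, and the arm that is not loaded is usually degraded. The ratio of the arms in a library therefore depends in part on strand choice and stability. Other influences on it, such as library preparation, were not measured here. The family derives from an ancient L2 transposable element, and its hairpins lie in introns of genes linked to cell adhesion or the actin skeleton. In breast and liver cancer its members are known from studies of migration and metastasis: miR-151a is often studied with its host PTK2, which codes for focal adhesion kinase, and miR-708 has been described as a suppressor of metastasis in triple-negative tumours.

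Mature sequences were taken from RefSeq (GRCh38.p14), where 1 of the 5 listed members, miR-28-3p, was matched, together with both arms of miR-708. The sequences of miR-28-5p, miR-151a-3p, miR-151a-5p and miR-151b were not used here. The 3 sequences are shown because they let the arms that do and do not appear in these cells be compared, and the capitals mark the seed:
miR-28-3p: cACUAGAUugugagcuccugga
miR-708-3p: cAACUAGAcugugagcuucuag
miR-708-5p: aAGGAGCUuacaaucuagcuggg
The 3p arms of miR-28 and miR-708 have related but shifted seeds. The run ACUAGA stands at bases 2 to 7 of miR-28-3p and at bases 3 to 8 of miR-708-3p, and the longest run the 2 share is 8 bases long, from base 9 to 16 of miR-28-3p. Since the study asked which miRNAs bind LOC550643, the complement of bases 2 to 7 was searched on the transcript strand of the isoforms V1 (718 nt), V2 (581 nt) and V3 (476 nt). The sites are TCTAGT for miR-28-3p, CTAGTT for miR-708-3p, which overlaps the first by 5 letters, and GCTCCT for miR-708-5p, and none of the 3 occurs in V1, V2 or V3. Of the 350 listed miRNAs with a RefSeq sequence, 16.6% have such a 6-base match in V1, 14.6% in V2 and 11.1% in V3.

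The values are in RPM, a reads-per-million scale, and sum to 999996 for control cells and 999845 for knockdown cells. The low values step by the worth of 1 read, 5.29 RPM for control cells and 2.03 RPM after knockdown, from which about 189034 and 491541 reads fell on miRNAs, and 92.9% and 91.5% of the values up to 20 reads were whole reads within 0.1 read. A value of 3 reads, used as the floor, is 15.9 RPM for control cells and 6.10 RPM after knockdown. Log2 fold changes compare knockdown with control as log2(RPM + 1) after scaling both libraries to the same total, and intervals are 95% intervals of counting error only. As a check of the labelled cell line, of 5 epithelial markers (miR-200a, miR-200b, miR-200c and miR-141, 3p arms, and miR-429) 2 were listed, summing to 10.6 RPM in control cells and 8.14 RPM after knockdown. The 4 miRNAs typical of mesenchymal-like lines (miR-221-3p, miR-222-3p, miR-100-5p and miR-146a-5p) were all listed and summed to 190154 and 134758 RPM. Most of each sum was miR-100-5p, at 176487 RPM in control cells and 123748 RPM after knockdown. None of 5 blood cell miRNAs was listed.

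In the GENCODE 29 annotation of GRCh38, the build named in the submitters' processing notes as hg38, each of the 4 hairpins lies in an intron of a protein-coding gene. MIR28 is on the plus strand of chromosome 3 from 188688781 to 188688866, in LPP, which codes for a protein of cell contacts and is read on the same strand. MIR151A is on the minus strand of chromosome 8 from 140732564 to 140732653, in PTK2 on the same strand. MIR708 is on the minus strand of chromosome 11 from 79402022 to 79402109, in TENM4, which codes for a cell surface protein of the teneurin family, on the same strand. MIR151B is on the minus strand of chromosome 14 from 100109419 to 100109514, inside EVL, which codes for a regulator of actin and is read from the opposite strand.

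The family was represented almost entirely by 1 strand. Its listed members summed to 37598 RPM in control cells and 49897 RPM after knockdown, or 3.76% and 4.99% of the miRNA reads. Of this sum, miR-151a-3p made up 96.2% in control cells and 97.0% after knockdown. The order of the levels was the same in both libraries: miR-151a-3p, miR-28-3p, miR-151a-5p, miR-28-5p and miR-151b, with miR-708 listed in neither. The RPM intervals of neighbours in this order did not overlap between miR-151a-3p, miR-28-3p and miR-151a-5p, whereas those of miR-151a-5p and miR-28-5p overlapped in both libraries, as did those of miR-28-5p and miR-151b.

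**Figure D1:**
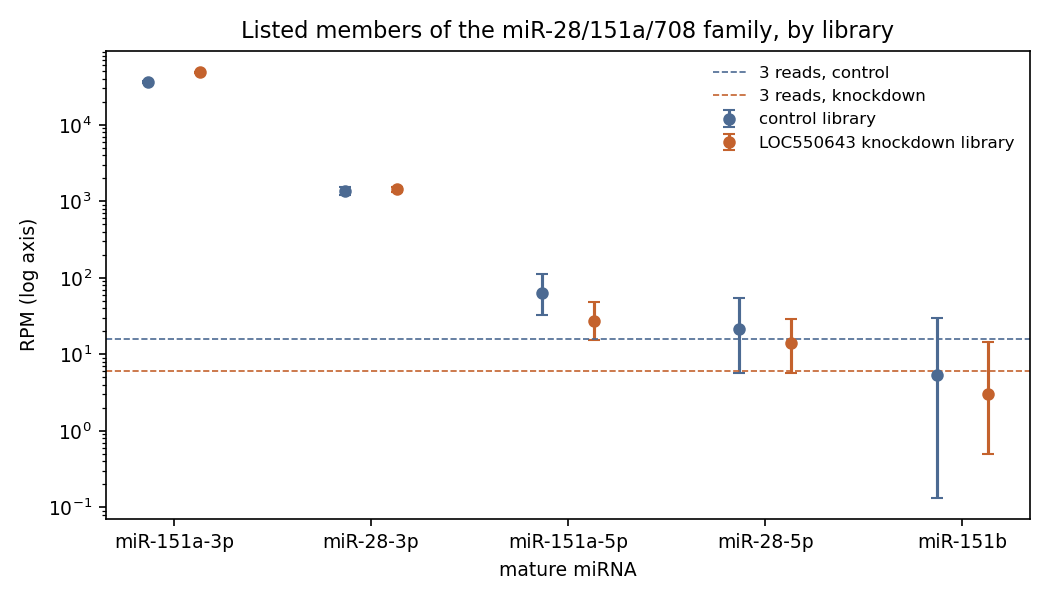
RPM (log axis) of the 5 listed members in the control library and the LOC550643 knockdown library, with 1 point per library, bars for the 95% counting interval and dashed lines for the level of 3 reads. The 3p arms lie at 1354 RPM or more and the 5p arms at 63.5 RPM or less, and the bars of the 2 libraries are apart for miR-151a-3p and overlap for the other members.

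The abundant strands of this family in these cells were the 3p arms of miR-151a and miR-28. The level of hsa-miR-151a-3p was 36153 RPM in control cells (interval 35315 to 37003) and 48412 RPM after knockdown (47813 to 49015). It ranked 6th of 376 and 7th of 375 listed miRNAs. Its log2 fold change was 0.42 (0.38 to 0.46), which is 1.34-fold, and the libraries did not overlap in counting error. In RPM the difference of 12259 was the largest upward difference of all 425 miRNAs except for those of miR-148a-3p and miR-143-3p. Of the 12 miRNAs averaging at least 10000 RPM, a limit set after the values were seen, only miR-143-3p (0.69) had a higher log2 fold change, and the median of the 12 was -0.03. Of the 124 averaging at least 100 RPM, 21 had a higher one. RPM are shares of a library, so a higher value for abundant miRNAs goes with lower values for others. In the same pair of libraries miR-100-5p was lower by 52739 RPM, and a link between these differences was not tested.

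The second 3p arm, miR-28-3p, is the strand of the LPP hairpin whose sequence is given above. Its level was 1354 RPM in control cells (1194 to 1531) and 1440 RPM after knockdown (1336 to 1550). The RPM intervals overlapped, and the log2 fold change of 0.09 (-0.12 to 0.30) was within counting error when both libraries were scaled to their totals. This depended on the scaling, as the interval lay above 0 with median-of-ratios scaling (0.29, 0.08 to 0.50) and with scaling to the 75th percentile (0.38, 0.17 to 0.59). The ratio of miR-151a-3p to miR-28-3p was 26.7 in control cells and 33.6 after knockdown.

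The 5p arms were present at a few reads each. For hsa-miR-151a-5p, which pairs with miR-151a-3p in the Dicer product, the level was 63.5 RPM from 12 reads in control cells (32.8 to 111) and 27.5 RPM from 13.5 reads after knockdown (15.6 to 47.8). In reads the libraries were close to each other, but the knockdown library was deeper, and the control level would amount to 31.2 reads in it. The log2 fold change was -1.18, and its interval ran from -2.38 to 0.09 when the fractional value was taken as 14 reads and from -2.51 to -0.0015 when it was taken as 13. For miR-28-5p, the level was 21.2 RPM from 4 reads in control cells (5.77 to 54.2) and 14.2 RPM from 7 reads after knockdown (5.72 to 29.3). The control level would amount to 10.4 reads at the depth of the knockdown library, and the log2 fold change of -0.54 had an interval of -2.55 to 1.65, so a difference was not detectable.

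The remaining names of the family were at or under the floor. The row miR-151b, whose mature strand is known to share its sequence with miR-151a-5p, was at 5.29 RPM in control cells (1 read) and at 3.05 RPM after knockdown (1.5 reads), and no fold change is given. The values of miR-151a-5p and miR-151b in the knockdown library were both fractions, 13.5 and 1.5 reads, and together they came to 15.0 reads, against 13.0 in the control library. How the authors' tool divides reads between rows is not given in the sources used here, so the levels of these rows may not be independent. With miR-151b added to miR-151a-5p, an alternative chosen after the values were seen, the sum was 68.8 RPM in control cells and 30.5 RPM after knockdown, a log2 fold change of -1.15 (-2.34 to 0.02). Neither arm of miR-708 was listed in either library, so each was taken as 0 reads. The 3-read floor was 15.9 RPM in control cells and 6.10 RPM after knockdown, and a level somewhat above it is not excluded. The upper 95% limits at 0 reads were 19.5 and 7.50 RPM.

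Of the 5 members, 4 had more than 3 reads in both libraries. With scaling to the library total, 1 of these 4, miR-151a-5p, was more than 2-fold lower in the knockdown library (-1.18), but not with median-of-ratios scaling (-0.99), with scaling to the 75th percentile (-0.89) or with a pseudocount of 10 RPM (-0.97). With scaling to the total the same held for 22 of the 201 miRNAs that exceeded this number of reads in each library (10.9%) and for 15 of the 77 of these with a mean under 100 RPM (19.5%). None was more than 2-fold higher, against 7 of the 201 (3.48%). One of the 4, miR-151a-3p, had a log2 interval above 0, as had 22 of the 201 (10.9%), and under the other scalings miR-28-3p had one as well. The median log2 fold change was -0.19 over the 201 miRNAs and -0.20 over all 425. The rule used this contrast, and nothing is read from these counts.

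The ratio of the arms compares 2 values of the same library and therefore does not depend on how the libraries are scaled to each other, apart from the pseudocount. For the miR-151a hairpin, the 3p arm made up 99.82% of the arm reads in control cells (99.69% to 99.91%) and 99.94% after knockdown (99.90% to 99.97%). The 3p arm was 570 times the 5p arm in control cells and 1763 times after knockdown. The log2 ratio of 5p over 3p thus went from -9.13 to -10.73, a change of -1.60 with an interval of -2.80 to -0.33, or -2.93 to -0.42 with the fractional read rounded down. With miR-151b added to the 5p arm the change was -1.57 (-2.77 to -0.40). The intervals under all 3 treatments of these reads lie below 0, while their width comes from the 12 and 13.5 reads of the 5p arm. The 3 treatments share nearly all of these reads, so their likeness adds no support. The hairpin was chosen by these same values, and where the intervals lie is a description.

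For the miR-28 hairpin, the 3p arm made up 98.5% of the arm reads in control cells (96.1% to 99.6%) and 99.0% after knockdown (98.0% to 99.6%). The ratio of 3p to 5p was 64.0 in control cells and 101 after knockdown. The log2 ratio of 5p over 3p went from -5.93 to -6.56, a change of -0.63 whose interval of -2.65 to 1.57 spans 0 and covers the change of miR-151a. In both hairpins the 5p arm had the lower and the 3p arm the higher RPM in the knockdown library, and these directions were the same under each scaling tried. For the 3p arms this was fixed beforehand, since median-of-ratios and 75th percentile scaling only raise the log2 fold changes. At 4 and 7 reads of miR-28-5p, a difference between the changes of the 2 hairpins was not detectable. The hairpins of miR-708 and miR-151b gave no arm ratio.

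Counted by sign alone, arms that differed in direction were common in these libraries. There were 87 hairpins with a 5p and a 3p row of the same name, of which 29 had more than 3 reads in each arm and library. In 14 of the 29 (48.3%) the arms differed in direction, and in 8 (27.6%), the miR-151a and miR-28 hairpins among them, the 5p arm was lower and the 3p arm higher. The ratio of 5p over 3p was lower in 15 of the 29 (51.7%) and more than 2-fold lower in 3 (10.3%), which were miR-424, miR-151a and miR-132, and it was more than 2-fold higher in 4, which were miR-27a, miR-532, miR-330 and miR-574. With scaling to the library total, opposite directions of the arms were thus about as frequent as shared ones. These counts take no account of counting error, so arms that hardly differed are included. An example is miR-21, whose 5p arm had a log2 fold change of -0.0018 (-0.020 to 0.017). In miR-28 the intervals of both arms spanned 0, whereas in miR-221 and miR-99b those of both arms left out 0. The median change over the 29 was -0.04, with quartiles of -0.51 and 0.55 and a range from -1.76 to 1.72.

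**Figure D2:**
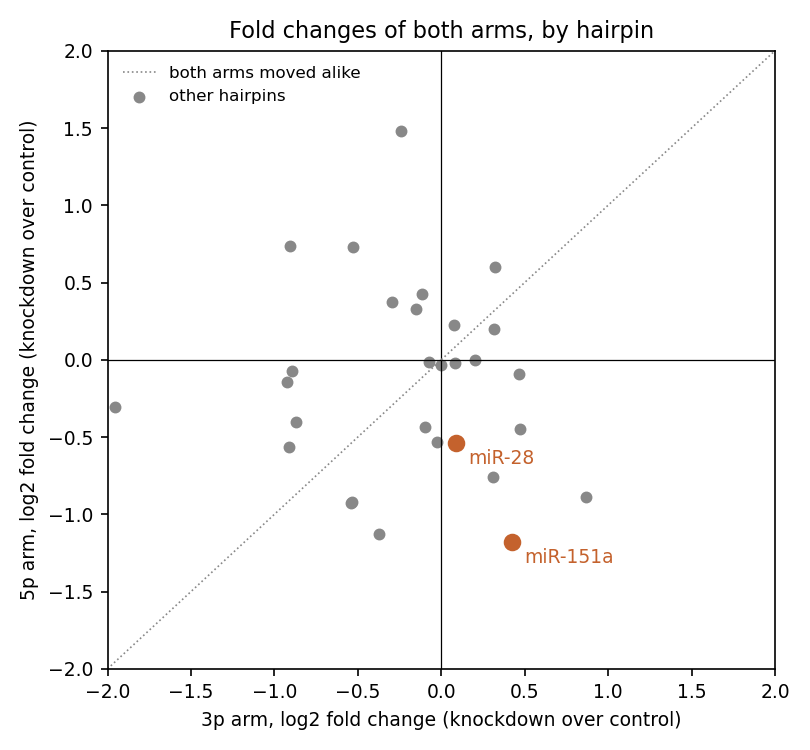
Log2 fold change (knockdown over control) of the 5p arm against that of the 3p arm for the 29 hairpins with more than 3 reads in each arm and library, 1 point per hairpin. The miR-151a hairpin (0.42 and -1.18) and the miR-28 hairpin (0.09 and -0.54) lie in the lower right quadrant, where 8 of the 29 points are.

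The change of miR-151a was the second from the lowest among the 29, between miR-424 with a change of -1.76 (-3.54 to 0.02) and miR-132 with -1.07 (-3.75 to 1.42), and that of miR-28 was the sixth from the lowest. These 2 and miR-30e (-0.92, -1.70 to -0.15) were the hairpins with the change nearest to that of miR-151a. Their ratios were far less uneven, as the 3p arm made up 61.9% of miR-424, 40.0% of miR-132 and 22.9% of miR-30e in the control library. The interval of the change left out 0 in 7 of the 29 hairpins (24.1%), miR-151a and 6 others. Among the 13 hairpins whose arms both had a mean of at least 100 RPM, to which neither miR-151a nor miR-28 belongs, the largest changes toward 3p were those of miR-30e, miR-99b (-0.56) and let-7d (-0.39), and the largest toward 5p those of miR-27a (1.72), miR-574 (1.25) and miR-221 (0.67).

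**Figure D3:**
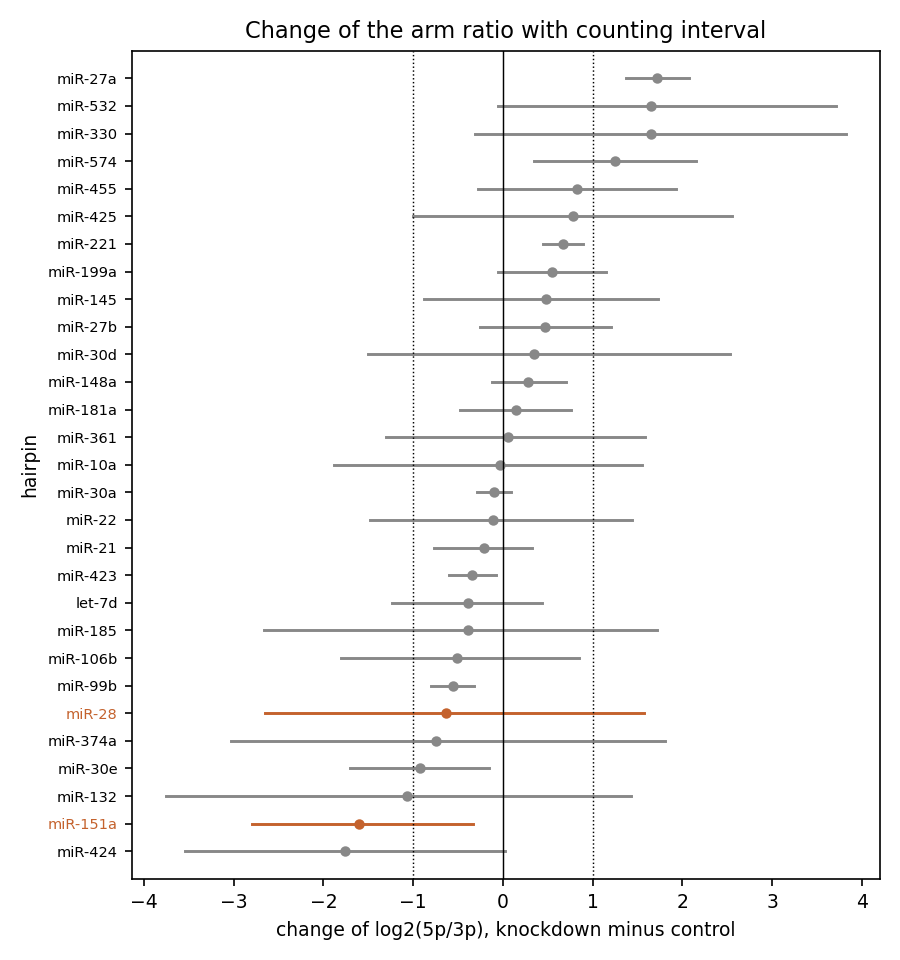
Change of log2(5p/3p) between the libraries (knockdown minus control) for the 29 hairpins, with points for the change and bars for its 95% counting interval, the solid line at 0 and dotted lines at a 2-fold change. The bar of miR-151a (-2.80 to -0.33) lies below 0 and that of miR-28 (-2.65 to 1.57) spans it.

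The miR-151a hairpin was among the most one-sided of the 29 in both libraries. By the size of the log2 ratio between its arms it ranked 3rd of the 29 in control cells and 1st after knockdown. These ranks depend on the filter, since a minimum of reads in the rarer arm leaves out strongly one-sided hairpins. Among those left out, the log2 ratio of 5p over 3p was -11.57 in control cells and -11.67 after knockdown for miR-143. For miR-100 it was 17.43 and 14.09, with no 3p read in the control library. Within the 29, the other hairpins of the 3 most one-sided in the control library were miR-21 and miR-148a. The 3p arm made up 0.117% and 0.135% of miR-21, and 99.83% and 99.79% of miR-148a. The miR-28 hairpin ranked 8th of the 29 in control cells and 7th after knockdown. The rare arm of miR-148a was at 339 RPM in control cells and 515 RPM after knockdown, and that of miR-21 at 206 RPM and 238 RPM, both more abundant than miR-151a-5p.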

How the data were processed

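Small RNA was prepared from 1 control and 1 LOC550643 knockdown culture. The authors made the libraries with a small RNA kit, analysed the reads with their own tool and deposited RPM (a reads-per-million scale over miRNA reads), in a table for each library. The submitters' processing notes name hg38, FastQC and cutadapt, while the aligner and the miRNA release are not given in the sources used here. The labels name both MiSeq and HiSeq instruments.

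Where a table did not list a miRNA, 0 was used. Levels are given as deposited, and log2 fold changes after scaling to the library total with a pseudocount of 1 RPM. The worth of 1 read was fitted by least squares to values up to 20 reads within 0.1 read of a whole number, and fractions were rounded, with 0.5 upwards. No count test was run because there was 1 library per condition, and the intervals rest on the rounded reads. Levels and shares have Clopper-Pearson intervals, fold changes intervals from the share of knockdown reads, and arm ratio changes exact conditional odds ratio intervals (95%, scipy 1.17.1). They treat reads as independent molecules. Arms were paired by name. Named beside the family are the 3 hairpins nearest to miR-151a in the change of arm ratio, the 3 largest changes each way with both arms at a mean of at least 100 RPM, marker miRNAs, and, chosen after their values were seen, the most one-sided hairpins and the most abundant miRNAs. The members and lists were chosen with earlier results of these data known. The procedure was tested on simulated libraries. Alternatives covered scaling, pseudocount, filters and the fold threshold. The computations used Python 3.11.15, numpy 2.4.6, pandas 2.3.3 and matplotlib 3.10.9.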

Additional observations from a re-analysis of the deposited data

How the results depend on the processing

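No paired analysis was possible because the labels give a single control and a single knockdown sample. The log2 fold change of miR-151a-3p, 0.42 with scaling to the library total, was 0.62 with median-of-ratios scaling and 0.72 with scaling to the 75th percentile, which raise every log2 ratio by 0.20 and 0.29 before the pseudocount is added, and that of miR-28-3p, 0.09, was 0.29 and 0.38. The interval of miR-28-3p spans 0 with the library total and lies above 0 with these scalings (0.08 to 0.50 and 0.17 to 0.59), intervals that were added after the data were seen. Under the same scalings miR-151a-5p was at -0.99 and -0.89, and with a pseudocount of 10 RPM at -0.97, each less than 2-fold lower. The fold changes and arm ratio changes of miR-151a and miR-28 kept their sign in every alternative run. Many of these signs were fixed beforehand, as a pseudocount cannot turn the sign of a fold change. The 2 other scalings only raise the ratios, so only the signs of the 5p fold changes were open to them. Of 39 alternative values 29 stayed within the counting interval or within 1.5 times the count. Among the 29 are the fold changes from RPM as deposited, which hardly differ from the main ones. The 7 hairpins with an arm ratio changed more than 2-fold became 48 of 87 with all paired hairpins, 2 of 13 with both arms at a mean of at least 100 RPM and 13 of 29 at a 1.5-fold threshold. The 14 hairpins with arms in opposite directions became 43 of 87 and 8 of 13 with these filters. Their number also depends on the scaling, and it was 13 with median-of-ratios scaling and 12 with scaling to the 75th percentile. Of all 425 miRNAs 76 passed the 2-fold threshold upwards and 116 downwards, against 7 and 22 when only the 201 above 3 reads in each library were taken. Depth limits the 5p arms most, since miR-151a-5p rests on 12 and 13.5 reads and miR-28-5p on 4 and 7.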

Other observations

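Besides miR-151a, 6 hairpins had a change of the log2 ratio of 5p over 3p whose counting interval left out 0. It was lower in the knockdown library for miR-30e, miR-99b (-0.80 to -0.32) and miR-423 (-0.61 to -0.07), and higher for miR-221 (0.45 to 0.89), miR-574 (0.35 to 2.15) and miR-27a (1.37 to 2.07). The names were taken after the values were seen, and the changes were not tested against variation between cultures.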
